A study of Mus musculus with 6 samples.

Results

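The levels of 4 genes of the extracellular matrix, *Col1a2*, *Col15a1*, *Col28a1* and *Svep1*, were compared between 2 mouse lung squamous carcinoma (LUSC) cell lines, with the question of whether the other 3 genes follow *Col1a2*. They were taken from a table of 55359 rows by Ensembl identifier, and a row was kept only if it lay in the first part of chromosome 4, which ends shortly above *Svep1*, or in the first part of chromosome 6. Within these stretches, here called the windows, the positions of the table follow those of mouse build GRCm38, whereas most rows elsewhere are displaced and cannot be read as the gene they name. The windows held 1144 rows. Of the 559 that could be placed by symbol on the same GRCm38.p6 chromosome, 536 lay within 1000 bases of the RefSeq gene at one of their ends, against 261 of 22673 such rows (1.15%) elsewhere in the nuclear genome. The genes were chosen by their matrix role with the counts of both lines already seen, the difference of *Col1a2* between the lines included, so their fold changes are given as a description and without a test.

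UN-SCC679 and UN-SCC680 are immortalized, spindle-shaped lines of strain A/J, each from a tumor of a different mouse. The mice had been painted on the skin with the carcinogen NTCU (N-nitroso-tris-chloroethylurea), and both lines were later passed through immunodeficient Rag2-/- IL2Rg-/- mice and then A/J mice. Poly(A) RNA of cells without further treatment was sequenced in 3 libraries per line. Nothing in the labels says that the libraries came from separate cultures, so the spread between them may be technical, and each line stands for 1 tumor. Library totals ran from 3568293 to 4381885 counts, and the share of the windows was 14.2% to 14.3% in UN-SCC679 and 12.4% in each library of UN-SCC680. Normalized counts below are CPM, counts scaled to a common library size, and refer to these totals, which include reads on displaced rows, and so are not shares of the transcriptome. Of 56 cell type markers listed, 5 lie in the windows. Among the 14 squamous and basal markers this is *Aqp3*, the water and glycerol channel of basal epithelium, with 2 counts in all of UN-SCC679 and 1 in all of UN-SCC680. Of the 11 epithelial markers, the splicing regulator *Esrp1* had 3 and 0 counts, and the growth factor receptor *Met* had 4170 ± 46.6 and 1554 ± 22.3 CPM (n = 3 each, SD). Of the 9 blood cell markers, *Hemgn* had 0 and 1 counts, and none of the 6 endothelial markers lies there. Keratins and *Trp63*, which define squamous cells, lie outside the windows and were not read.

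Collagens are secreted proteins of 3 chains wound around each other, and the winding needs a glycine in each glycine-X-Y triplet of residues. *Col1a2* encodes the alpha-2 chain of type I collagen, the main fibril of skin, bone and scar, which is made mostly by fibroblasts and by tumor cells of mesenchymal character. *Col15a1* encodes a collagen of the basement membrane zone with an interrupted helix, and *Col28a1* a collagen with von Willebrand factor A domains that is found around peripheral glia. *Svep1* is not a collagen. It encodes a very large secreted adhesion protein, built of sushi, EGF-like and pentraxin domains, that serves as an integrin ligand.

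The coding sequences of these genes differ in how far the glycine repeat reaches. They are shown because the repeat is what the collagens share and *Svep1* lacks. In the longest protein-coding transcript of each gene in GENCODE M1, the longest unbroken run of glycine-X-Y triplets was 339 triplets in *Col1a2*, over codons 97 to 1113 of 1372. It was 30 triplets in *Col15a1* (1367 codons), 28 in *Col28a1* (1141 codons) and 2 in *Svep1* (3567 codons). Glycine made up 27.8%, 15.4%, 18.6% and 9.17% of the codons in the same order. The first 90 bases of the run, or all 18 in *Svep1*, read as follows from 5′ to 3′, with the codon of the repeated glycine in capitals.
Col1a2: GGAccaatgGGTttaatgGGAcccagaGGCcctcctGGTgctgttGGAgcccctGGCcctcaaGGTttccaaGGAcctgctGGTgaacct
Col15a1: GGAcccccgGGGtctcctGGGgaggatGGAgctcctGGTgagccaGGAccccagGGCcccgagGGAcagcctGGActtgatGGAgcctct
Col28a1: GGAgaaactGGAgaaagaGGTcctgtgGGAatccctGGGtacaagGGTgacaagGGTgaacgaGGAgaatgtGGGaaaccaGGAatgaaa
Svep1: GGGgctctgGGCagactg
These stretches start at base 289, 1885, 829 and 121 of the coding sequence of *Col1a2*, *Col15a1*, *Col28a1* and *Svep1*, respectively.

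*Col1a2* was abundant in both lines and much higher in UN-SCC679, while the other 3 genes were close to 0 in all 6 libraries. The pooled scaled count of *Col1a2* in UN-SCC680 was 0.0807 of that in UN-SCC679. This value lies below the counting intervals of *Col15a1* and *Svep1* given further on, also with any 1 library left out. Those intervals rest on 2 and 8 counts of *Col15a1*, and 1 and 4 of *Svep1*, in UN-SCC679 and UN-SCC680. They cover counting error only. Without replicate 2 of UN-SCC680 the lower bound of *Col15a1* was 0.100, against 0.0813 for *Col1a2*. Whether these genes follow *Col1a2* is thus not settled. For *Col28a1* a fall as large as that of *Col1a2* could be neither seen nor excluded at this depth. *Col1a2* (ENSMUSG00000029661.17, chromosome 6, 4504814 to 4541544, + strand) had 99141, 125364 and 103704 counts in the 3 libraries of UN-SCC679, and 9976, 9655 and 9290 counts in those of UN-SCC680. All libraries of UN-SCC679 lay above all libraries of UN-SCC680, as the lines did not overlap in 62.2% of all rows tested, and nothing is read from this. After TMM scaling over all rows the level was 27923 ± 1218 CPM in UN-SCC679 and 2256 ± 93.7 CPM in UN-SCC680 (n = 3 each, SD). The fitted log2 fold change of UN-SCC680 over UN-SCC679 was -3.63 (standard error 0.03, 95% interval -3.69 to -3.57, from edgeR), which is a 12.4-fold lower level in UN-SCC680. In bulk RNA, fewer cells that make the transcript and less transcript per cell cannot be told apart. *Col1a2* is also the 1 gene of 16 fibroblast markers that lies in the windows, and the part of fibroblasts in the cultures was not tested.

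**Figure D1:**
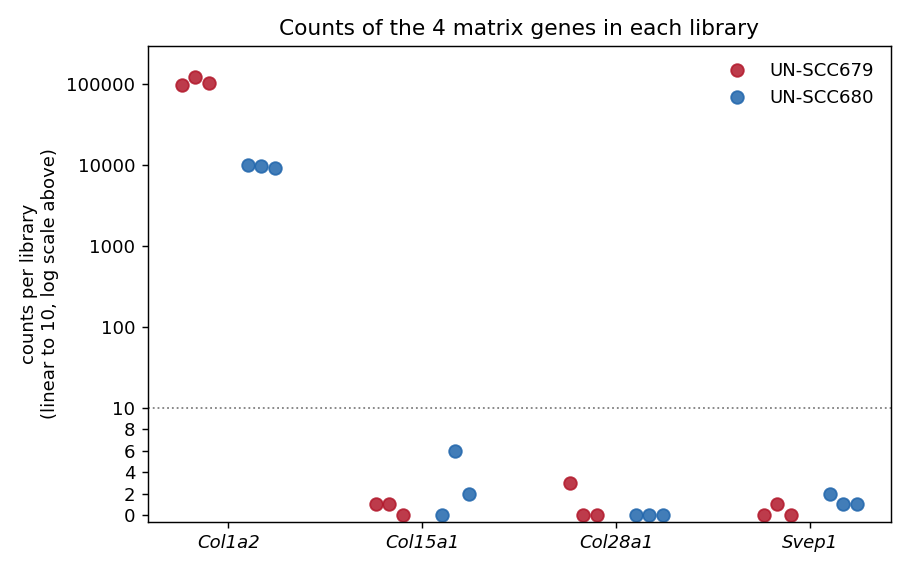
Counts of *Col1a2*, *Col15a1*, *Col28a1* and *Svep1* (x axis) in each library, with a y axis that is linear up to 10 (dotted line) and logarithmic above. Points are single libraries of UN-SCC679 (red) and UN-SCC680 (blue). *Col1a2* lies between 9290 and 125364 counts, and no library of the other 3 genes exceeds 6 counts.

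In UN-SCC679 the *Col1a2* row had rank 2 by count in the whole table in each library, and rank 1 without mitochondrial rows. Most rows outside the windows are displaced, so ranks in the whole table are among rows and not among genes. *Col1a2* took 2.68%, 2.87% and 2.91% of all counts, with 95% Wilson intervals that reach from 2.66% to 2.92% and cover counting error only. In UN-SCC680 its rank was 34 to 37 and it took 0.215% to 0.235%. Among the counts in the windows alone, *Col1a2* made up 19.8% ± 0.797 (SD, n = 3) in UN-SCC679 against 1.80% ± 0.0888 (SD, n = 3) in UN-SCC680. Per kilobase of exon the level was 2247 ± 98.0 CPM in UN-SCC679 and 182 ± 7.54 CPM in UN-SCC680 (n = 3 each, SD), which ranked 3 among the rows in the windows in each library of UN-SCC679 and 57 to 60 in UN-SCC680. The length used was the 12426 exon bases of the row, whereas the longest coding transcript has 5347 bases. Ranks by transcript length were not computed. The loss of 25666 CPM from UN-SCC679 to UN-SCC680 was the largest of the rows tested in the windows, ahead of 2616 CPM for *Met* and 1687 CPM for the actin cross-linker *Flnc*.

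*Col1a2* was the 1 member of 4 that passed the low-count filter of edgeR. It was past the threshold of an adjusted p of 5e-05, as were 30.4% of the 8987 rows tested (15.3% higher and 15.2% lower in UN-SCC680) and 53.9% of the 343 rows tested in the windows. Its choice rests on this contrast, so nothing is read from that call. Of the rows tested in the windows, 16 had a lower fitted log2 fold change than *Col1a2*. The median log2 fold change was -0.0028 over all rows tested and 0.23 in the windows. When TMM factors were computed on window rows alone, the median over all rows moved by -0.23 and the log2 fold change of *Col1a2* became -3.86. Leaving *Col1a2* itself out of the scaling kept it at -3.63.

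A row without a symbol, ENSMUSG00000107603.2 (chromosome 6, 4506087 to 4507878), lies wholly inside an intron of *Col1a2* on the same strand and shares 0 exon bases with it. This row was picked after its values were seen. It had 99, 67 and 52 counts in UN-SCC679 and 1, 2 and 3 counts in UN-SCC680. Here too the lines did not overlap, as for 77.3% of the rows tested in the windows, and nothing is read from this. The scaled count of the intron row was 39.7 times higher in UN-SCC679 (95% counting interval 17.9 to 109). For each 1000 counts of *Col1a2* the intron row had 0.999, 0.534 and 0.501 counts in UN-SCC679 and 0.100, 0.207 and 0.323 in UN-SCC680. Pooled over the libraries of a line these were 0.664 and 0.207, a ratio of 3.20 (95% counting interval 1.45 to 8.82). With one library left out in turn the ratio was 2.50 to 4.35, and the lower bound stayed at or above 1.06. The intron row thus differed between the lines by more than the exons did, in counts that are few in UN-SCC680 and in intervals that leave out the spread between libraries.

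**Figure D2:**
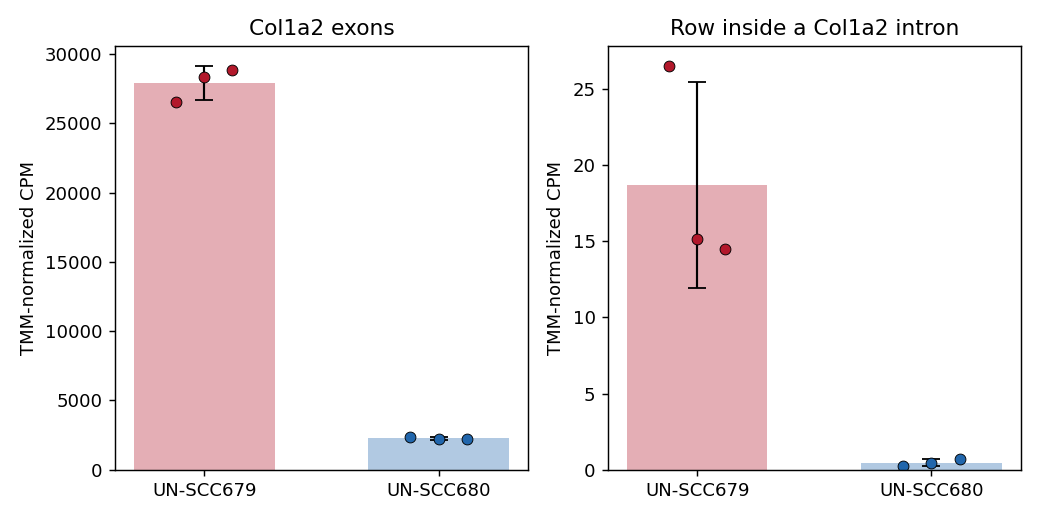
TMM-normalized CPM (y axes, from 0) of *Col1a2* (left) and of the row inside a *Col1a2* intron (right) in UN-SCC679 and UN-SCC680. Bars are means of 3 libraries, error bars are SD and points are libraries. The exon level falls from a mean of 27923 to 2256 CPM and the intron row from 18.7 to 0.467 CPM.

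*Col15a1* (ENSMUSG00000028339.18, chromosome 4, 47208161 to 47313167, + strand) had 1, 1 and 0 counts in UN-SCC679 and 0, 6 and 2 counts in UN-SCC680. The lines overlapped, and 6 of the 8 counts of UN-SCC680 came from replicate 2. Pooled by line without TMM scaling, the level was 0.172 CPM in UN-SCC679 (95% Poisson interval 0.0208 to 0.621) and 0.618 CPM in UN-SCC680 (0.267 to 1.22). With TMM scaling the ratio of UN-SCC680 to UN-SCC679 was 3.67, with a 95% counting interval of 0.731 to 35.4 that includes 1. Without replicate 1 of UN-SCC680 the ratio was 5.47 and its interval, 1.09 to 52.8, lay above 1, whereas without replicate 2 both lines had 2 counts. With any 1 library left out the lower bound was 0.100 or more, above the ratio of *Col1a2*. The row Gm12426 on the other strand shares 14 exon bases with *Col15a1* and had 0 counts in every library.

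*Svep1* (ENSMUSG00000028369.16, chromosome 4, 58042442 to 58206859, - strand) had 0, 1 and 0 counts in UN-SCC679 and 2, 1 and 1 counts in UN-SCC680. A count of 1 occurred in both lines. In CPM the lines did not overlap, at 0.226 against 0.230 where they come closest, each from 1 count. This held for 62.2% of all rows tested, and nothing is read from it. Pooled without TMM scaling, the level was 0.0859 CPM in UN-SCC679 (95% Poisson interval 0.0022 to 0.479) and 0.309 CPM in UN-SCC680 (0.0842 to 0.791). With TMM scaling the ratio of UN-SCC680 to UN-SCC679 was 3.67, with a counting interval of 0.363 to 181. The lower bound was 0.142 or more with any 1 library left out, again above the ratio of *Col1a2*. A difference between the lines was not detectable at this depth, although the row covers 16117 exon bases, the most of the 4 genes.

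*Col28a1* (ENSMUSG00000068794.8, chromosome 6, 7997808 to 8192617, - strand) had 3, 0 and 0 counts in UN-SCC679 and 0 counts in each library of UN-SCC680. All its counts came from replicate 1 of UN-SCC679. Pooled without TMM scaling, the level was 0.258 CPM in UN-SCC679 (95% Poisson interval 0.0532 to 0.753). A count of 0 over the 3 libraries of UN-SCC680 has a 95% Poisson interval of 0 to 0.285 CPM, and a floor of 3 counts is 0.232 CPM there. Both lines are at or under 3 counts, the floor used for a line, so no ratio is given. Poisson intervals and floors cover counting error only.

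Seen from *Col1a2*, the distance to the other genes is large in either line. Per kilobase of exon, the pooled count of *Col1a2* in UN-SCC679 was 83848 times that of *Col15a1* (95% counting interval 23211 to 692366), 43177 times that of *Col28a1* (14774 to 209368) and 425700 times that of *Svep1*, which rests on 1 count. In UN-SCC680 it was 1847 times that of *Col15a1* (937 to 4279) and 9378 times that of *Svep1* (3662 to 34421), and at least 3805-fold higher than the floor of *Col28a1*. The position in UN-SCC680 of *Col15a1* depends on 1 library, since the ratio without replicate 2 was 4922. With the length of the longest coding transcript in place of the table's exon length, the ratio to *Col15a1* was 158734 in UN-SCC679 and 3497 in UN-SCC680. The order of the members by level was therefore *Col1a2* first in both lines. The intervals of the other 3 overlap in UN-SCC679, as do those of *Col15a1* and *Svep1* in UN-SCC680, and their order was not resolved.

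The RefSeq promoter windows of the 4 genes (GRCm38.p6, 300 bases around 1 annotated start each) were searched on both strands for CCAAT, for the GC box GGGCGG and for TATAAA, 3 common promoter motifs. *Col1a2* held CCAAT at 2 places, 1 on each strand, and the GC box at 2 places, with no overlap among them. The window of *Svep1* held neither of these motifs, and it held TATAAA once on the reverse strand. Those of *Col15a1* and *Col28a1*, which miss the outer start of the RefSeq gene, held no CCAAT or GC box either. Among all 32851 promoter windows of the table, 37.4% held CCAAT, 35.7% the GC box and 13.6% TATAAA. The reverse CCAAT of *Col1a2* begins at its RefSeq start and is shown as the motif found in the member with counts, with the match in capitals (chr6:4505606-4505635, + strand, GRCm38.p6).
Col1a2 promoter: cctagccctcccATTGGtggagacgttttt
The windows of *Col1a2* and *Svep1* hold the outer start of their RefSeq gene. Those of *Col15a1* (chromosome 4, 47207762 to 47208061) and *Col28a1* (chromosome 6, 8192568 to 8192867) lie inside the gene and do not hold its outer start (47207655 and 8193709). The lack of matches there is therefore not set against *Col1a2*. The rows that were counted start elsewhere. That of *Col28a1* starts at 8192617, inside its promoter window. Those of *Col1a2* (4504814), *Col15a1* (47208161) and *Svep1* (58206859) start outside theirs. The matches are thus not compared between the genes. These matches describe letters only, and binding of a factor was not measured.

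A list of 247 genes of the matrix and its upkeep placed 27 in the windows, the 4 members and 23 others. Of these 23, 12 were tested by edgeR's quasi-likelihood test, 8 differed between the lines at an adjusted p under 5e-05, and 5 of the 8 were higher in UN-SCC680. The background is 53.9% of rows tested in the windows, with 38.5% higher and 15.5% lower in UN-SCC680. The median log2 fold change of the 12 was 0.12, also with the gene at 0 counts set to its bound, against 0.23 for the rows tested in the windows. With TMM factors from window rows alone, 10 of the 12 differed and 4 of these were higher, beside 2928 of all 8987 rows tested that differed. The share of rows in the windows was not computed for that scaling. One of the 5 is counted here but not described. The genes thus moved in both directions. The 3 genes in the windows that were listed under collagen processing did not pass the threshold.

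The 3 genes in the windows that were listed under collagen processing differed little in fold between the lines. None of the roles given for them below is particular to collagen. They are 3 of 34 listed for collagen processing. The others, among them *P4ha1*, *Plod1*, *Serpinh1* and *Lox*, were not read, so nothing is said of collagen processing as a whole. *Calu*, which encodes the calcium-binding calumenin of the endoplasmic reticulum, had 5575 ± 71.1 CPM in UN-SCC679 and 5199 ± 91.0 CPM in UN-SCC680 (n = 3 each, SD), which edgeR fitted as a log2 fold change of -0.10 with an adjusted p of 0.000851. *Erp44*, which retains immature secretory proteins, had -0.11 as log2 fold change, with an adjusted p of 0.0168 in edgeR. *Asph*, an aspartyl hydroxylase of EGF-like domains, had 1450 ± 27.6 and 1446 ± 17.1 CPM (n = 3 each, SD), and its log2 fold change of -0.0037 (standard error 0.03) changed sign under some settings. Library size alone and limma-voom brought *Calu* past the threshold, at -0.13 and -0.10, and scaling on window rows brought all 3 past it, at -0.33, -0.34 and -0.24 for *Calu*, *Erp44* and *Asph*.

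Among proteases and their inhibitors, *Reck*, a membrane-anchored inhibitor of matrix metalloproteinases, was higher in UN-SCC680. It had 56, 92 and 46 counts in UN-SCC679 and 347, 371 and 357 counts in UN-SCC680, with no overlap between the lines, as for 77.3% of the rows tested in the windows. In log2 it was 2.34 higher, with a standard error of 0.11 and an edgeR adjusted p of 5.60e-23. *Mmp16* and the hyaluronidases *Hyal4*, *Hyal6* and *Spam1* had 0 counts in all 6 libraries, and the Kunitz inhibitor *Tfpi2* had 1.

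Of the genes that tie the matrix to the cell, *Tln1*, the talin that links integrins to actin, rose from 3503 ± 108 to 5148 ± 169 CPM (n = 3 each, SD), which edgeR fitted as a log2 fold change of 0.56 with an adjusted p of 1.64e-21. *Cav1*, the caveolin of membrane pits, fell by 0.36 on the log2 scale (adjusted p = 7.05e-16 from edgeR). *Sgce*, a sarcoglycan, had 25, 19 and 26 counts in UN-SCC679 against 0 in UN-SCC680, at least 25.5-fold lower against a floor of 3 counts over the line, and passed the threshold (adjusted p = 2.19e-11 from edgeR).

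The signals and transcription factors with known roles in matrix gene expression did not share a direction. *Tgfbr1*, the kinase receptor through which TGF-beta induces collagen genes, had 275, 283 and 289 CPM in the libraries of UN-SCC679 and 575, 616 and 632 CPM in those of UN-SCC680, which edgeR fitted as a log2 fold change of 1.11 with an adjusted p of 2.71e-26. *Klf4*, a transcription factor of epithelial differentiation, had 3.26 as log2 fold change, with an adjusted p of 2.51e-36 in edgeR. *Creb3*, a membrane-bound factor of the secretory pathway, had 0.25 and just missed the threshold (adjusted p = 5.22e-05 from edgeR). *Lpar1*, a receptor for lysophosphatidic acid, fell from 612 ± 18.5 to 38.6 ± 3.63 CPM (n = 3 each, SD), which edgeR fitted as -3.98 ± 0.06 (SE) in log2 (adjusted p = 1.40e-42). Among the 23 genes, 11 were too low to test, with 0 to 22 counts in all. The highest was *Thsd7a*, a thrombospondin-repeat protein, with 7, 8 and 7 counts in UN-SCC679 against 0 in UN-SCC680, at least 8.0-fold lower. *Vwde*, *Ptprz1*, *Gdf6*, *Wnt2* and *Wnt16* had 0 to 2 counts each.

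**Figure D3:**
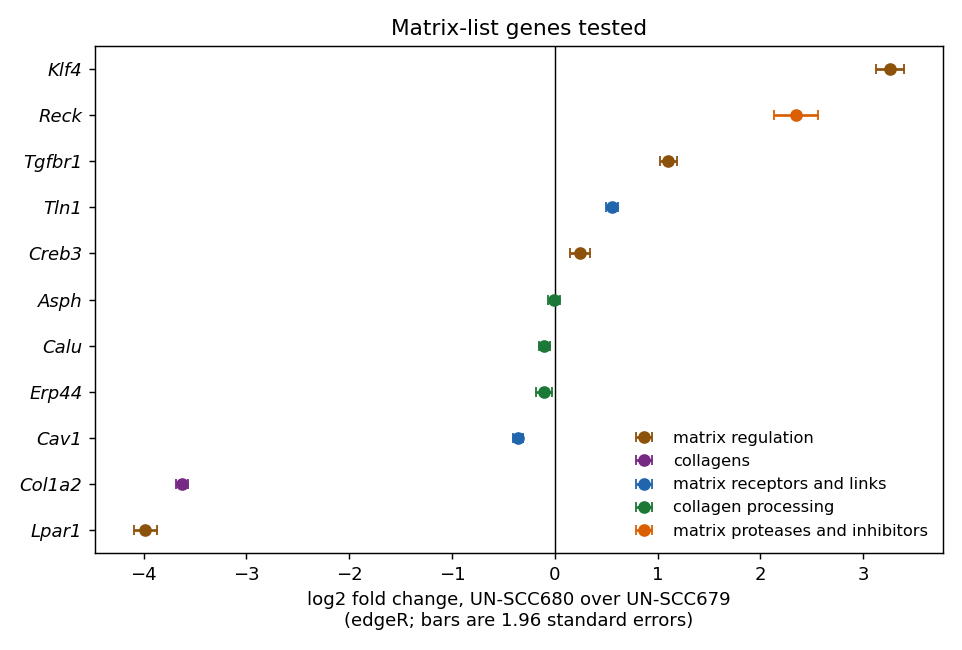
Log2 fold changes of UN-SCC680 over UN-SCC679 (x axis) for *Col1a2* and the other genes of the matrix list that were tested (y axis), colored by category, with bars of the 95% interval. *Sgce*, with 0 counts in UN-SCC680, and 1 gene not described here are left out. *Lpar1* (-3.98) lies beside *Col1a2* (-3.63), and *Klf4* (3.26) and *Reck* (2.34) lie at the other end.

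The pattern most like that of *Col1a2* was that of *Lpar1*. Likeness was the root mean square difference of log2 CPM (prior count 2), centered on the mean of the 6 libraries, over the 291 genes of the windows whose mean reached 10 CPM in one or both lines. It was 0.19 for *Lpar1*, 0.40 for *Rragd* and 0.42 for *Cttnbp2*. *Rragd*, a GTPase of the lysosome, had 20.3 ± 1.55 CPM in UN-SCC679 and 2.27 ± 0.703 CPM in UN-SCC680 (n = 3 each, SD). *Cttnbp2*, a cortactin-binding protein, had 120 counts in UN-SCC679 against 0 in UN-SCC680, at least 43.7-fold lower. With 0 counts in UN-SCC680, the value of *Cttnbp2* is set by the prior count and does not measure a likeness. Both *Rragd* and *Cttnbp2* reached 10 CPM in UN-SCC679 alone, the line in which they are high. The 3 genes share the 6 libraries with *Col1a2*, and with 2 lines such a likeness reflects mainly the difference between the lines.

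**Figure D4:**
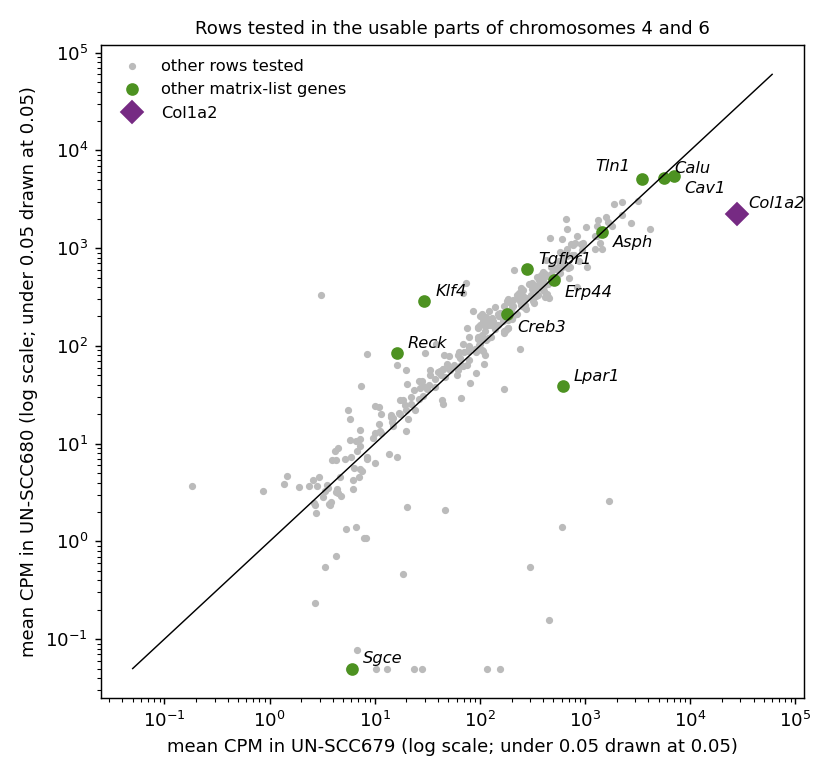
Mean TMM-normalized CPM in UN-SCC679 (x axis) and UN-SCC680 (y axis), both logarithmic, of the 343 rows tested in the windows. Gray points are rows, green points are the other described genes of the matrix list, the purple diamond is *Col1a2* and the line marks equal levels. *Col1a2* is the row farthest to the right, at 27923 against 2256 CPM.

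The rows next to each member were read as well, taking the nearest tested row on either side. Below *Col1a2*, 145 kb away, ENSMUSG00000098779.3 had 9.66 ± 0.623 CPM in UN-SCC679 and 11.4 ± 2.32 CPM in UN-SCC680 (n = 3 each, SD), with an adjusted p of 0.269 from edgeR. Above it, 59.3 kb away, *Casd1*, a sialic acid acetyltransferase, had 1837 counts in UN-SCC679 against 0 in UN-SCC680, at least 668-fold lower. *Col1a2* itself had 28921 counts in UN-SCC680, whereas *Casd1*, *Sgce* and *Peg10* above it, the last of them named after its values were seen, were at 0 there. Farther up the direction varied. Counts in UN-SCC679 and UN-SCC680 were 95 and 14 for *Ppp1r9a*, 1423 and 2944 for *Pon3*, and 4196 and 4220 for *Pon2*. They were 546 and 27 for *Asb4*, and 5302 and 2 for *Pdk4*. These genes too were named after their values were seen.

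**Figure D5:**
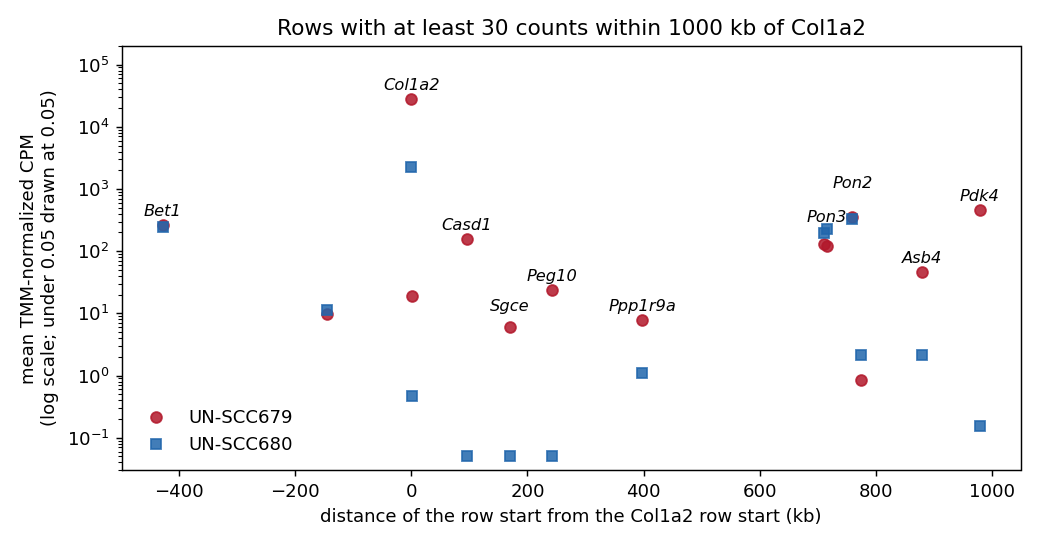
Mean TMM-normalized CPM (y axis, logarithmic, values under 0.05 drawn at 0.05) of rows with at least 30 counts against their distance in kb from the start of *Col1a2* (x axis), in UN-SCC679 (red circles) and UN-SCC680 (blue squares). Points without a name are rows without a symbol. *Casd1*, *Sgce* and *Peg10* are at 0 in UN-SCC680 and *Col1a2* is at 2256 CPM.

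The nearest tested rows beside the 3 genes near 0 follow. Only rows past the low-count filter could be taken, so that they have counts is no finding. *Col15a1* lies between *Galnt12*, which starts mucin-type sugar chains, and *Tgfbr1*. *Galnt12* rose from 16.3 ± 0.530 to 64.0 ± 1.24 CPM (n = 3 each, SD), which edgeR fitted as a log2 fold change of 1.98 with an adjusted p of 8.64e-21, and the gap between *Col15a1* and *Tgfbr1* is 40.1 kb. *Col28a1* is followed at 16.6 kb by *Mios*, a regulator of mTORC1, with 195 ± 5.44 and 235 ± 6.85 CPM (n = 3 each, SD; log2 fold change 0.27, adjusted p = 7.79e-06 from edgeR). On its other side, ENSMUSG00000096403.3 had 0.43 as log2 fold change, with an adjusted p of 4.86e-11 in edgeR. *Svep1* lies 86.0 kb from the thioredoxin gene *Txn1*, at 3158 ± 53.0 and 3028 ± 165 CPM (n = 3 each, SD; adjusted p = 0.0868 from edgeR), and 228 kb from *Lpar1*. These rows had counts in both lines, and rows too low to test that may lie closer were passed over.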

How the data were processed

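The deposited file is a table of raw read counts, 1 row per Ensembl gene and 1 column per library, which also gives each exon's position and the exon length. The submitters' processing notes name featureCounts and mm10, while the published methods describe trimming with Trimmomatic and Kallisto pseudoalignment against mm10. The strand setting of the counting is not given in the sources used here, so reads of overlapping genes on opposite strands cannot be told apart. Columns were matched to libraries by line and replicate number, and 0 columns were left unused. Symbols were matched by Ensembl identifier. The members and lists were chosen with earlier results of these data known.

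Lines were compared with edgeR's quasi-likelihood test on all rows (filterByExpr, TMM, no covariates, Benjamini-Hochberg adjustment at 5e-05). The fit was also run on simulated counts with the same spread in every row, which checks the procedure and not the calls made here. Standard errors were derived from the F statistic. Pooled counts carry exact Poisson intervals, ratios of counts exact conditional intervals and shares Wilson intervals at 95%. Replicates differed by more than sampling noise (chi-square per row 1.12 to 1.65), and the common biological coefficient of variation was 3.12%. Named genes were the members, the list genes and markers in the windows, the nearest tested neighbors and the 3 genes most like each tested member. 1 tested list gene is not reported here by name. Alternatives were other scalings, filters, thresholds and tools, a replicate block and leaving out each library. SciPy 1.17.1, NumPy 2.4.6, pandas 2.3.3 and matplotlib 3.10.9 were used in Python 3.11.15, and edgeR 4.0.16, DESeq2 1.42.0 and limma 3.58.1 in R 4.3.3.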

Additional observations from a re-analysis of the deposited data

How the results depend on the processing

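The log2 fold change of *Col1a2* (-3.63) lay between -3.60 and -3.67 under all other settings run except scaling on window rows alone, where it was -3.86, and between -3.60 and -3.67 with each library left out in turn. The 2736 rows past the threshold became 5248 at an adjusted p under 0.05 and 1024 with an absolute log2 fold change over 1 besides. Of the 2736, 50.1% were higher in UN-SCC680, against 25.6% of the 2928 called with scaling on window rows. DESeq2 called 1857 rows and limma-voom 2504. The 8 matrix genes past the threshold became 5 with a log2 fold change over 1. *Asph* changed sign, to 0.015 with DESeq2, 0.029 with no low-count filter and -0.017 to 0.010 with single libraries left out, of which 3 gave the other sign. Over the 11 matrix genes described, 162 values kept direction and side of the threshold, 8 newly passed it and 5 changed sign. The ratio of *Col1a2* to *Col15a1* in UN-SCC680 was 1210 to 4922 with one library left out, and the bound for *Col28a1* was 2492 to 2583, or 7626 with the length of the longest coding transcript. The last setting and the scaling without *Col1a2* were chosen after seeing the data. Scaling cancels in ratios of summed counts within a line, so it was not varied for them. With the replicate number as a block, 2528 rows and 8 matrix genes passed and *Col1a2* stayed at -3.63. Deviations of libraries with the same number had correlations of -0.038, -0.00052 and -0.022. No pairing was seen in these values, but so few libraries cannot exclude it, and the labels give only a number. Depth limits *Col15a1*, *Col28a1* and *Svep1*, where 3 counts over a line correspond to 0.258 CPM in UN-SCC679 and 0.232 CPM in UN-SCC680.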
